A study of Mus musculus with 4 samples.

Results

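Promoter methylation of 50 germline genes was read in 4 mouse lung tumors. The genes were listed by name as germ cell genes whose promoters are methylated in somatic cells. A promoter was taken as the 1000 bp before to 500 bp after every annotated transcription start site (TSS). Of the 50 members, 36 had at least 1 CpG site read 20 or more times in each of the 4 tumors (a qualified site), among 20135 such genes in all. The 36 members held 904 qualified sites.

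The study compared tumors of 344SQP, a parental lung adenocarcinoma line, with tumors of 344SQR, a line derived from it that resists anti-PD1 antibody. The line carries the alleles p53R172HΔg/+ and KrasLA1/+, and cells grew under the skin of the leg of syngeneic female 129Sv/Ev mice aged 12 to 16 weeks. All mice received anti-PD1 at 10 mg/kg into the peritoneum from day 4, in 4 doses, and tumors were collected 24 hours after the last dose. Each group held 2 tumors of 1 cell line, so the differences below are between these lines. Reduced representation bisulfite sequencing, which reads CpG-dense DNA around CCGG, gave 116794455 and 138331886 CpG calls in the 344SQP tumors and 160548303 and 174689402 in the 344SQR tumors. Mean coverage at qualified sites was 103 and 121 reads in 344SQP and 140 and 144 reads in 344SQR.

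Many genes that act only in germ cells have CpG-dense promoters that are methylated in somatic cells, unlike most CpG-dense promoters. The mark is laid down around implantation, and the E2F6, MGA and MAX proteins of a variant Polycomb complex bind a number of these promoters. In germ cells the same promoters lose the mark and the genes are transcribed.

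Most measured members were highly methylated in these tumors. The promoter mean was at or above 50% in all 4 tumors for 29 of 36 members (80.6%), against 3217 of 20135 promoters (16.0%). It was under 10% in all 4 tumors for 1 of 36 members (2.78% of members), Prdm9, against 57.4% of promoters. The median member lay at 86.8% and 88.2% in the 344SQP tumors and at 85.2% and 83.6% in the 344SQR tumors, where the median promoter lay at 3.12%, 3.34%, 2.54% and 2.56%. Among CpG-rich promoters, 14 of 20 members were at or above 50%, against 202 of 12734 promoters (1.59%). All 14 measured members of intermediate CpG density were at or above 50%, against 30.8% of such promoters, and of the CpG-poor members Pou5f1 was and Nanos2 was not.

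**Figure D1:**
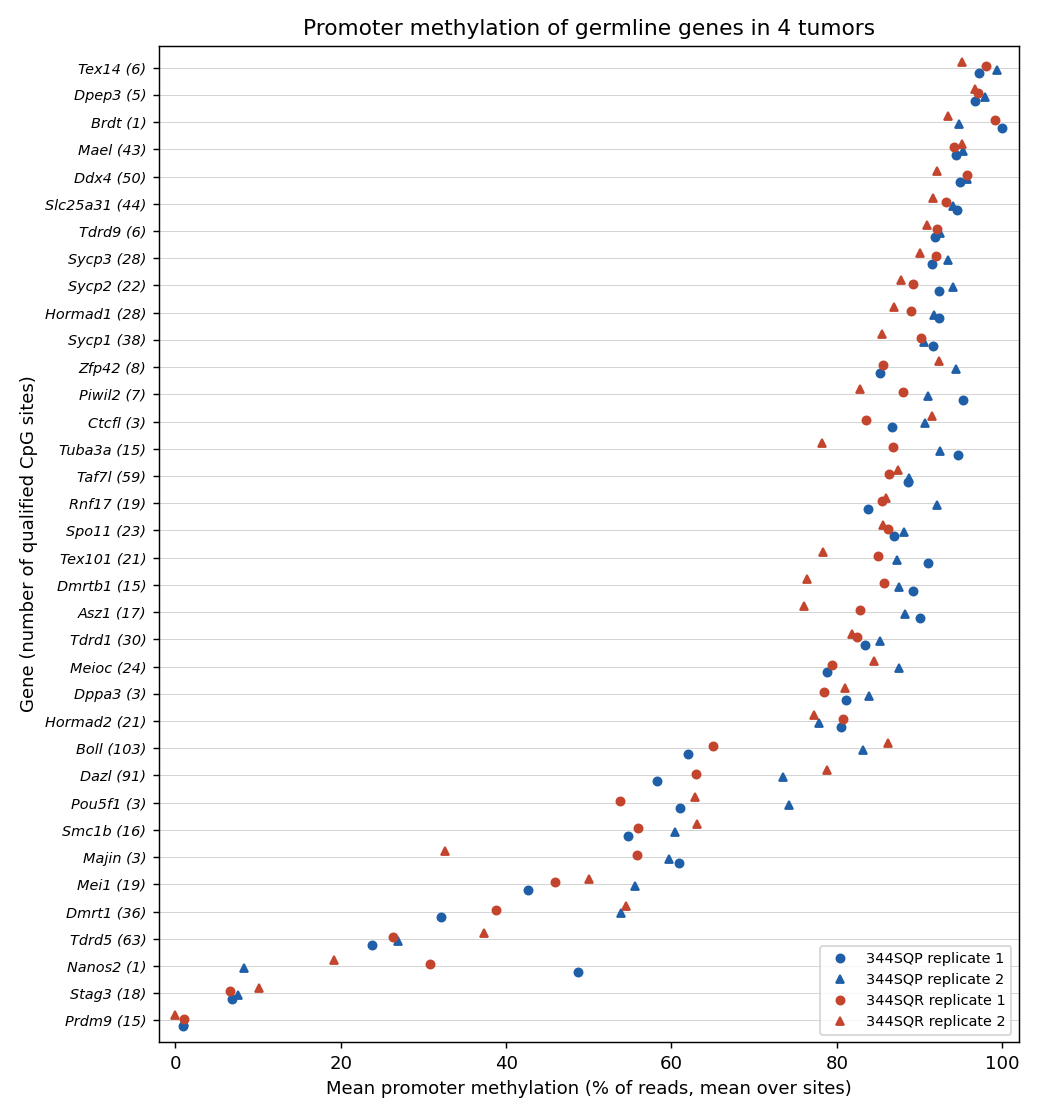
Mean methylation of the 36 measured member promoters on the horizontal axis, in percent of reads averaged over sites, with genes and their number of sites on the vertical axis. Points are single tumors (344SQP blue, 344SQR red, replicate 1 circles, replicate 2 triangles), and 29 members lie at or above 50% in all 4 tumors while Prdm9 lies under 10%.

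Between the lines the members differed little. The read-level test (a likelihood ratio test at each site on reads pooled by line, joined over the promoter by Stouffer's z, false discovery rate under 0.05 over all 20135 promoters) called 16 members lower in 344SQR (44.4%), where it called 29.5% of all promoters lower. It called 4 members higher, Tdrd5, Dazl, Boll and Dmrt1 (11.1%), against 9.03% of all promoters. Among promoters at or above 50% in all tumors it called 51.7% of the members and 50.7% of all promoters lower, so the members' share was near that of promoters with a like level. The test takes reads as independent and ignores the spread between tumors of a line. Without 344SQP replicate 1 it called 25 lower and 1 higher, without 344SQP replicate 2 it called 12 and 8, without 344SQR replicate 1 it called 15 and 7, and without 344SQR replicate 2 it called 17 and 0. In the same 4 fits, in that order, 28.9%, 21.8%, 30.2% and 28.6% of all promoters were called lower and 7.35%, 12.9%, 11.9% and 3.96% higher. Of the 16 members called lower, 7 were called lower whichever tumor was left out: Asz1, Piwil2, Sycp2, Hormad1, Dmrtb1, Tex101 and Tuba3a. Of the 4 called higher, 0 were.

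edgeR's quasi-likelihood test, which uses the spread between tumors of a line, called 0 members in either direction, against 0.0745% of all promoters. At an unadjusted p under 0.05 it listed 2 members, Asz1 and Tuba3a (5.56%), against 8.79% of all promoters. limma called 0 members and 0 promoters, with 4 members at an unadjusted p under 0.05 (11.1%), against 10.2% of all promoters. Both 344SQR tumors lay below both 344SQP tumors in 14 members (38.9%), against 32.5% of all promoters. Both lay above in 0 members, against 7.58% of all promoters. Averaged over the 36 members, methylation was 75.1% and 77.2% in the 344SQP tumors and 73.6% and 73.9% in the 344SQR tumors. The median member difference (344SQR minus 344SQP, here and below in percentage points) was -1.56, beside -0.233 over all promoters. For promoters at or above 50% it was -1.73 over members and -4.02 over all. In bulk tumors a different share of cells and a different level per cell cannot be told apart.

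The piRNA pathway and germ granule silence transposons in germ cells. Of 14 listed genes 8 were measured, with 7 at or above 50% in all tumors. The read-level test called 4 lower (50.0%, against 29.5% of all promoters and 50.7% of those at or above 50%). It called 1 higher (12.5%, against 9.03% of all promoters) and 3 in neither direction. Without 344SQP replicate 2 the counts were 2 lower and 2 higher, and without 344SQR replicate 2 they were 4 and 0. Ddx4, the germ granule RNA helicase also known as Vasa (TSS at chr13:112652475, GRCm38/mm10), held 94.9% and 95.8% in 344SQP and 95.7% and 92.2% in 344SQR over 50 sites. Values of the lines overlapped, and the difference of -1.41 was called lower but was 0.360 without 344SQR replicate 2 and -0.984 without 344SQP replicate 2, neither called. Without 344SQR replicate 1 it was -3.19, and with both strands of a CpG merged it was -1.32 and not called. Mael, which is needed for transposon silencing (chr1:166238747), held 94.4% and 95.3% in 344SQP and 94.1% and 95.1% in 344SQR over 43 sites. Its lines overlapped and it was not called, though it was called lower without 344SQP replicate 1 (-0.648) or 344SQR replicate 2 (-0.682), and its mean was higher in 344SQR without 344SQP replicate 2 (0.238) or 344SQR replicate 1 (0.273). It was also called lower with strands merged (-0.243), at sites read 50 or more times (-0.277) and within 250 bp of a TSS (-0.318).

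Tdrd1, a tudor protein that binds PIWI proteins (chr19:56826209), held 83.4% and 85.2% in 344SQP and 82.4% and 81.8% in 344SQR over 30 sites. Both 344SQR tumors were lower, and the difference of -2.16 was -1.24 and not called without 344SQP replicate 2. Asz1, a germ granule protein found at mitochondria (chr6:18109057), averaged 90.1% and 88.3% in 344SQP (89.2% ± 1.25, SD, n = 2) and 82.9% and 76.0% in 344SQR (79.4% ± 4.83, SD, n = 2) over 17 sites. Both 344SQR tumors were lower, replicate 2 the more so. The difference of -9.74 was larger than either SD and was -6.33 without 344SQR replicate 2, and the edgeR adjusted p was 0.435 with a log2 odds ratio of -1.38. Piwil2, a PIWI protein that binds piRNAs (chr14:70429094), held 95.3% and 91.0% in 344SQP (93.2% ± 3.02, SD, n = 2) and 88.0% and 82.8% in 344SQR (85.4% ± 3.65, SD, n = 2) over 7 sites. The lines did not overlap, the difference was -7.75, and the edgeR adjusted p was 0.580. Within 250 bp of the TSS only 2 of its sites remained, with -7.29 and no call, and another gene, Gm24890, starts within 1000 bp.

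Tdrd5, another tudor protein (chr1:156303664), was the only measured piRNA member under 50% in all tumors, with 23.8% and 26.9% in 344SQP and 26.3% and 37.4% in 344SQR over 63 sites. The lines overlapped, and 344SQR replicate 2 stood above the rest. The difference of 6.49 was called higher, but it was 0.953 and not called without 344SQR replicate 2 and 12.0 without 344SQR replicate 1, and another gene, 4930518J20Rik, starts within 1000 bp. Tdrd9, an RNA helicase, and Rnf17, a tudor protein, averaged 91.9% and 86.8% over the tumors and were not called. Rnf17 was called lower without 344SQP replicate 1 (-6.46) and higher without 344SQP replicate 2 (1.92). Tdrd12, Mov10l1, Piwil1, Piwil4, Stk31 and Tex15 had no qualified site.

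The synaptonemal complex joins paired chromosomes in meiosis. Of 9 genes of the complex and the chromosome axis 6 were measured, with 5 at or above 50% in all tumors, and 4 were called lower (66.7%, against 29.5% of all promoters and 50.7% of those at or above 50%) and 2 in neither direction. Without 344SQR replicate 2, 2 were called lower. Sycp3, a lateral element protein (chr10:88459569), held 91.5% and 93.4% in 344SQP and 91.9% and 90.0% in 344SQR over 28 sites. With overlapping lines it was not called, though it was called lower without 344SQP replicate 1 (-2.43) and within 250 bp of a TSS (-2.16). Sycp1, the transverse filament protein, differed by -3.24, Sycp2, a lateral element protein, by -4.66, and Hormad1, an axis protein, by -4.07, each with lines apart. Sycp1 was not called without 344SQR replicate 2 (-0.863) and differed by -5.61 without 344SQR replicate 1. Hormad2, a relative of Hormad1, averaged 79.1% and was not called, with a difference of -0.134. The Hormad2 difference was 1.14 without 344SQP replicate 1 and 1.61 without 344SQR replicate 2. It was -1.41 without 344SQP replicate 2 and -1.88 without 344SQR replicate 1. Majin, which tethers telomeres to the nuclear envelope, had 3 sites, at 60.9% and 59.7% in 344SQP and 55.9% and 32.5% in 344SQR. The lines did not overlap, and 344SQR replicate 2 stood far below the rest: the difference of -16.1 was -4.43 and not called without it, and -27.8 without 344SQR replicate 1. Syce1, Syce3 and Tex12 had no qualified site.

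Cohesin rings join sister chromatids, and meiosis uses subunits of its own. Of 3 listed 2 were measured and 0 were called by the read-level test or by edgeR, with 0 at an unadjusted edgeR p under 0.05. Of all promoters, the read-level test called 29.5% lower and 9.03% higher, and edgeR called 0.0745%, with 8.79% at an unadjusted p under 0.05. Stag3 held 6.86% and 7.59% in 344SQP and 6.63% and 10.1% in 344SQR over 18 sites. The lines overlapped, and it was called higher without 344SQR replicate 1 (2.87) and differed by -0.597 without 344SQR replicate 2. All 18 sites lay 250 to 1000 bp before its first TSS, and Gpc2 and Gm43720 start within 1000 bp. Smc1b held 54.8% and 60.4% in 344SQP and 56.0% and 63.0% in 344SQR over 16 sites next to Ribc2. The lines overlapped, and it was called higher without 344SQP replicate 2 (4.74) or 344SQR replicate 1 (5.43) and was lower, not called, without 344SQP replicate 1 (-0.944) or 344SQR replicate 2 (-1.64). Within 250 bp of a TSS on each side, Smc1b was called higher over 11 sites, with a difference of 7.08. Rec8 had no qualified site.

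Meiotic recombination starts from programmed DNA breaks. Of 5 genes 3 were measured, and 1 was called lower (33.3%, against 29.5% of all promoters) and 2 in neither direction. Without 344SQP replicate 1 or 344SQR replicate 1, 2 were called lower, and without 344SQP replicate 2 the counts were 0 lower and 1 higher. Spo11, which makes the breaks, averaged 86.7% and was called lower with lines apart (-1.65), but not without 344SQP replicate 2 (-1.04) or 344SQR replicate 2 (-1.30). Mei1, needed for break formation, held 42.7% and 55.5% in 344SQP and 46.0% and 50.0% in 344SQR. Its lines overlapped and it was not called, though it was called lower without 344SQP replicate 1 (-7.54) or 344SQR replicate 2 (-3.15) and higher without 344SQP replicate 2 (5.30), with 0.917 without 344SQR replicate 1. Prdm9, the histone methyltransferase that places recombination hotspots (chr17:15564340), held 0.886% and 1.05% in 344SQP and 1.09% and 0% in 344SQR over 15 sites. It was nearly unmethylated in every tumor, and it was called lower without 344SQR replicate 1 (-0.968) and differed by 0.121 without 344SQR replicate 2. Its 15 sites lay in the first 250 bp after that TSS, while 2 sites elsewhere in the gene were at 97.2%, 97.5%, 96.4% and 91.6%. Dmc1 and Tex11 had no qualified site.

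Of 5 RNA-binding germ cell regulators 4 were measured, with 3 at or above 50% in all tumors, and 1 was called lower, 2 higher (50.0%, against 9.03% of all promoters) and 1 in neither direction. Without 344SQP replicate 1 or 344SQR replicate 2 the counts were 3 lower and 0 higher, without 344SQP replicate 2 they were 1 and 3, and without 344SQR replicate 1 they were 0 and 2. Dazl and Boll belong to 1 family that controls translation in germ cells. Dazl (91 sites) held 58.3% and 73.4% in 344SQP and 63.0% and 78.8% in 344SQR. Boll (103 sites) held 62.0% and 83.1% in 344SQP and 65.0% and 86.2% in 344SQR. In both genes replicate 2 was above replicate 1 in each line and the lines overlapped. The same order held in 15 of the 36 members and the opposite order in 12, and CpG-rich promoters in general averaged 6.86% and 8.77% in 344SQP and 6.80% and 8.51% in 344SQR. The gap between tumors of a line was wider than the difference between lines, 5.04 for Dazl and 3.01 for Boll. The read-level test called both higher, and edgeR gave adjusted p of 0.932 and 0.953. Without 344SQP replicate 1 both were called lower (Dazl -2.55, Boll -7.55), as they were without 344SQR replicate 2 (Dazl -2.88, Boll -7.56). Without 344SQP replicate 2 the differences were 12.6 and 13.6, and without 344SQR replicate 1 they were 12.95 and 13.6. For Dazl the difference was 9.48 at sites read 50 or more times, and at its 5′ TSS alone it was -3.83 and called lower.

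The split between replicates differed along each promoter, as stretches chosen after their values were seen show. Within 250 bp of the downstream Dazl TSS (chr17:50292642-50293142) 56 sites averaged 34.5% and 59.6% in 344SQP (47.0% ± 17.7, SD, n = 2) and 43.6% and 71.6% in 344SQR (57.6% ± 19.8, SD, n = 2). In the first 500 bp after the upstream Dazl TSS (chr17:50293136-50293636) 32 sites averaged 96.9% and 97.4% in 344SQP and 95.2% and 93.4% in 344SQR. The upstream stretch was nearly fully methylated in every tumor and the downstream stretch only partly. Within 250 bp of the most upstream Boll TSS (chr1:55363219-55363719) 56 sites averaged 46.3% and 77.9% in 344SQP and 49.9% and 82.0% in 344SQR. In the 500 bp before its most downstream TSS (chr1:55362726-55363226) 47 sites averaged 80.7% and 89.3% in 344SQP and 83.0% and 91.1% in 344SQR. In Boll replicate 2 was above replicate 1 in both stretches, by a wider gap at the upstream start.

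**Figure D2:**
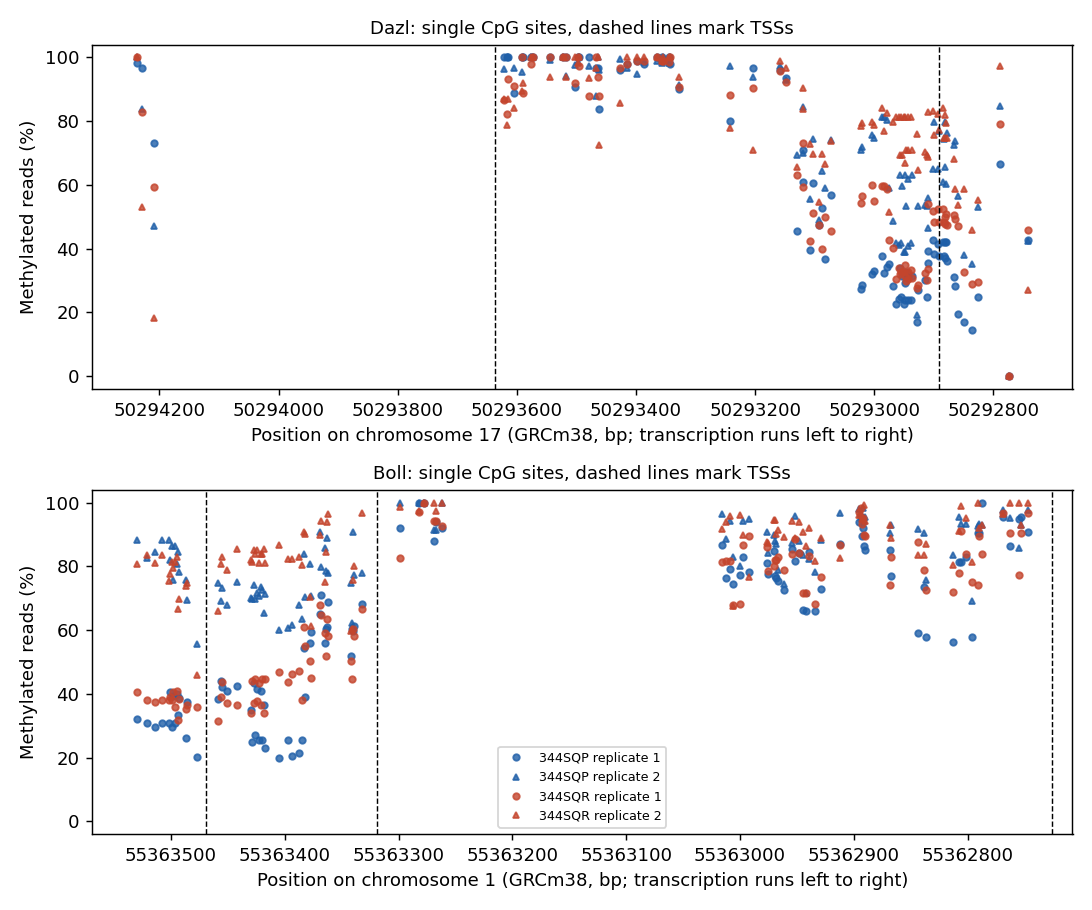
Methylated reads in percent (vertical axis) at each qualified CpG site of Dazl (91 sites) and Boll (103 sites) by position in bp on GRCm38 (horizontal axis), with dashed lines at TSSs. Points are single tumors (344SQP blue, 344SQR red, replicate 1 circles, replicate 2 triangles), and within 250 bp of the downstream Dazl TSS replicate 2 averages 59.6% and 71.6% where replicate 1 averages 34.5% and 43.6%.

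Reads from the Y chromosome also differed between replicates, at 406 and 254 for every 1000000 CpG calls in the 344SQP tumors and 555 and 178 in the 344SQR tumors. They were lower in replicate 2 of each line, and their part in the Dazl and Boll values was not tested. Meioc, a regulator of meiotic entry, held 78.8% and 87.5% in 344SQP and 79.4% and 84.5% in 344SQR over 24 sites. Its lines overlapped, and it was called lower (-1.21), with -5.55 without 344SQP replicate 1 and -3.73 without 344SQR replicate 2, but it was called higher without 344SQP replicate 2 (3.13) and was not called without 344SQR replicate 1 (1.31). Nanos2, a translational regulator of male germ cells, had 1 site (chr7:18987680), with methylated reads in 48.7% of 39 (95% Wilson interval 33.9 to 63.8) and 8.33% of 36 (2.87 to 21.8) in 344SQP. In 344SQR they were 30.8% of 39 (18.6 to 46.4) and 19.23% of 52 (10.8 to 31.9). The lines overlapped and the site was not called, though it was called lower without 344SQP replicate 2 (-23.7), and the difference was 16.7 without 344SQP replicate 1 and 2.24 without 344SQR replicate 2. These intervals, like those below, cover counting error only. Another gene, Gm45058, starts within 1000 bp of Nanos2. Nanos3 had no qualified site.

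Of 9 regulators of transcription and chromatin 8 were measured, with 7 at or above 50% in all tumors. The read-level test called 3 lower (37.5%, against 29.5% of all promoters and 50.7% of those at or above 50%). It called 1 higher (12.5%, against 9.03% of all promoters) and 4 in neither direction. Without 344SQP replicate 1 or 344SQR replicate 2 the counts were 5 lower and 0 higher, without 344SQP replicate 2 they were 2 and 1, and without 344SQR replicate 1 they were 1 and 2. Taf7l, an X-linked relative of a general transcription factor subunit, held 88.6% and 88.8% in 344SQP and 86.3% and 87.4% in 344SQR over 59 sites. The lines did not overlap, and the difference of -1.82 was -1.24 and not called without 344SQR replicate 1. At its 5′ TSS alone, with 20 sites, it was 0.182 and not called, and within 250 bp of a TSS it was -0.918. Dmrt1, a DM-domain factor of the testis, held 32.1% and 54.0% in 344SQP and 38.8% and 54.5% in 344SQR over 36 sites. Replicate 2 was above replicate 1 in each line, as in Dazl and Boll. The difference of 3.64 was called higher, but Dmrt1 was called lower without 344SQP replicate 1 (-7.27) or 344SQR replicate 2 (-4.21), with 14.6 without 344SQP replicate 2 and 11.5 without 344SQR replicate 1. Within 250 bp of a TSS its difference was 11.1 over 13 sites. Dmrtb1, a second DM-domain factor, held 89.2% and 87.5% in 344SQP (88.4% ± 1.22, SD, n = 2) and 85.8% and 76.4% in 344SQR (81.1% ± 6.62, SD, n = 2) over 15 sites. The lines did not overlap, the difference of -7.31 was -2.63 without 344SQR replicate 2 and -12.0 without 344SQR replicate 1, and the edgeR adjusted p was 0.687.

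Brdt, a testis bromodomain protein, had 1 site (chr5:107331666), with methylated reads in 100% of 70 (95% Wilson interval 94.8 to 100) and 94.7% of 95 (88.3 to 97.7) in 344SQP. In 344SQR they were 99.1% of 114 (95.2 to 99.8) and 93.4% of 91 (86.4 to 96.9). With overlapping lines the site was not called, and the difference was 1.53 without 344SQP replicate 1 and 1.75 without 344SQR replicate 2. Pou5f1, the pluripotency factor Oct4, held 61.1% and 74.3% in 344SQP and 53.8% and 62.8% in 344SQR over 3 sites. Its lines overlapped, and it was called lower (-9.34) but not without 344SQP replicate 2 (-2.74) or 344SQR replicate 1 (-4.84), with -15.9 without 344SQP replicate 1. Ctcfl, a testis relative of CTCF, Zfp42, a zinc finger factor of stem cells, and Dppa3, a maternal factor, averaged 88.1%, 89.4% and 81.1% and were not called. Zfp42 was called lower without 344SQP replicate 1 (-5.40) or 344SQR replicate 2 (-4.23), with 3.72 without 344SQP replicate 2 and 2.55 without 344SQR replicate 1, and Ctcfl was called higher without 344SQR replicate 1 (2.86), with 0.805 without 344SQP replicate 2. Another gene, Ctcflos, starts within 1000 bp of Ctcfl. Dppa4 had no qualified site.

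The 5 other testis genes were all measured and at or above 50% in all tumors, and 3 were called lower (against 50.7% of all promoters at or above 50%) and 2 in neither direction. Tuba3a, a testis alpha-tubulin (chr6:125286042), averaged 94.7% and 92.5% in 344SQP (93.6% ± 1.54, SD, n = 2) and 86.8% and 78.2% in 344SQR (82.5% ± 6.14, SD, n = 2) over 15 sites. Both 344SQR tumors were lower. The difference of -11.1, the largest among members with 5 or more sites, was -6.76 without 344SQR replicate 2, and the edgeR adjusted p was 0.313 with a log2 odds ratio of -1.91. At the 10 sites read 50 or more times it was -7.08, smaller than that of Asz1 at such sites (-13.9). Tex101, a testis surface protein, held 91.0% and 87.3% in 344SQP (89.2% ± 2.64, SD, n = 2) and 85.0% and 78.3% in 344SQR (81.7% ± 4.76, SD, n = 2) over 21 sites. The lines did not overlap, the difference of -7.49 was -4.12 without 344SQR replicate 2, and the edgeR adjusted p was 0.652. Slc25a31, a testis ADP/ATP carrier of mitochondria, held 94.6% and 94.0% in 344SQP and 93.2% and 91.7% in 344SQR over 44 sites. Both 344SQR tumors were lower, and the difference of -1.82 was -1.05 and not called without 344SQR replicate 2, and -1.14 and not called within 250 bp of the TSS. Tex14, a protein of the bridges between germ cells, was the most methylated measured member, at 97.2% and 99.4% in 344SQP and 98.1% and 95.1% in 344SQR over 6 sites near Rad51c. Its lines overlapped and the difference of -1.73 was not called. It was -0.609 without 344SQP replicate 2 and -0.227 without 344SQR replicate 2. Tex14 was called lower without 344SQP replicate 1 (-2.84) or 344SQR replicate 1 (-3.23), and with sites read 10 or more times (-2.63). Dpep3, a testis dipeptidase, held 96.8% and 98.0% in 344SQP and 97.1% and 96.7% in 344SQR over 5 sites. Its lines overlapped, and the difference was -0.472, or 0.142 without 344SQP replicate 2.

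The members with at least 5 sites, lines apart and a difference of 5 points or more were Asz1, Piwil2, Dmrtb1, Tex101 and Tuba3a, and in each 344SQR replicate 2 was the lowest tumor. That tumor was the lowest in 20 of the 36 members and in 35.1% of all promoters. It also had the most CpG calls. Of 18 leukocyte markers 5 had qualified sites, 9 sites in all, and the 5 had a lower mean in 344SQR, against 67.7% of all promoters and 80.2% of CpG-poor ones. Without 344SQP replicate 2 or either 344SQR tumor it was 4 of the 5, and in only 2 did the lines not overlap. Their median was 65.9% and 78.3% in the 344SQP tumors and 41.7% and 38.8% in the 344SQR tumors. Of 12 epithelial markers 10 were measured, with medians of 10.2% and 11.2% in 344SQP and 9.68% and 13.3% in 344SQR. Their mean was lower in 344SQR in 4 and higher in 6. Of 10 fibroblast and endothelial markers 5 were measured, with medians of 27.4% and 26.4% in 344SQP and 23.9% and 26.8% in 344SQR. Among these 5, the mean was lower in 344SQR in 4 and higher in 1, with a median difference of -6.26. Without 344SQR replicate 1 it was lower in 2 of the 5. The part of other cell types, or of depth, in the member differences was not tested.

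By distance, members averaged 80.7% in 344SQP and 79.4% in 344SQR in the 250 bp before a TSS and 79.9% and 77.9% in the 250 bp after it. The difference before the TSS, -1.27, was 0.127 without 344SQP replicate 2 and 0.0250 without 344SQR replicate 1. It was -2.66 without 344SQP replicate 1 and -2.56 without 344SQR replicate 2. The difference after the TSS, -2.02, was -0.0624 without 344SQP replicate 2 and -3.97 without 344SQP replicate 1. CpG-rich promoters in general were at 6.88% and 6.68% before the TSS and 7.09% and 6.95% after it. Their differences of -0.200 and -0.140 were 0.666 and 0.763 without 344SQP replicate 2 and 0.566 and 0.692 without 344SQR replicate 1. They were -1.07 and -1.04 without 344SQP replicate 1 and -0.966 and -0.972 without 344SQR replicate 2. From 1000 to 500 bp before a TSS, 7 members held 20 sites. With each member counted once, they averaged 74.6% and 72.4% in 344SQP and 66.2% and 55.8% in 344SQR. All promoters averaged 31.3% and 28.6% there in the lines. The member difference there was -12.5, and -7.30 without 344SQR replicate 2. It rests in part on Sycp1 (-39.1) and Tdrd5 (-26.0), with 1 site each. Stag3, with 7 of the 20 sites, was the only member higher in 344SQR there (5.53). Outside the promoters, 17 members had at least 5 sites within the gene, and 16 of them (94.1%) had a lower mean in 344SQR, as did 82.8% of 12119 genes in all. Both 344SQR tumors were below both 344SQP tumors in 13 of the 17 (76.5%), against 53.4% of all genes. The median difference was -7.06 over the members and -3.35 over all genes, so sites within genes but outside promoters were lower in 344SQR in most genes measured. Where these sites averaged at or above 50% in all 4 tumors, the lines were apart in this direction in 13 of 16 members (81.25%) and 58.0% of genes. The median differences there were -7.22 over members and -3.95 over genes. Meioc was the member with a higher mean.

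The sequence of the promoters came from a RefSeq table of GRCm38 that holds 300 bases around each start, in which 40 members matched, with 51 promoters. The letters CACGTG, an E-box that reads the same on both strands, stood in 19 of 51 (37.3%), against 7.15% of all 32851 promoters. TCCCGC or its reverse complement GCGGGA, the core of many E2F sites, stood in 19 (37.3%), against 19.98%, and both motifs stood in 9 (17.6%), against 1.99%. The median number of CpGs was 18 in the member promoters and 7 in all. Both motifs contain a CpG, so these shares do not compare promoters of like CpG density. A match describes letters only. Piwil2, Rnf17, Tex15, Majin, Spo11, Tex11, Ctcfl, Dmrt1, Dppa3 and Dppa4 did not match.

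Stretches without an annotated exon from 4 members, read from the RefSeq genome sequence of GRCm38, show how densely CpGs sit in methylated promoters. They run 5′ to 3′ on the strand of the gene, and capitals mark each CpG. Hormad1 (chr3:95559427-95559651, plus strand) averaged 92.3% in 344SQP and 89.4% in 344SQR over 20 sites and holds 1 CACGTG and 1 E2F core. Slc25a31 (chr3:40708621-40708845, plus strand) averaged 94.9% and 92.9% over 12 sites and holds 1 CACGTG. Asz1 (chr6:18109087-18109311, minus strand) is shown as the piRNA member with the largest difference and averaged 80.1% and 72.4% over 7 sites. Its single sites ran from 0% to 97.9% and 0% to 100% in the 344SQP tumors. In the 344SQR tumors they ran from 3.28% to 100% and 1.25% to 98.8%, so not every marked CpG was methylated. Boll (chr1:55362729-55362978, minus strand) is shown for its 33 CpGs and averaged 85.1% and 87.7% over 40 sites.
Hormad1: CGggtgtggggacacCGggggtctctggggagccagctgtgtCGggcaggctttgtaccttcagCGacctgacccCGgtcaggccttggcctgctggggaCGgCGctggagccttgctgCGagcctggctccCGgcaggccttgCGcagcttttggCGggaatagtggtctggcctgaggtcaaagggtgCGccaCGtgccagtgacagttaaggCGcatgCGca
Slc25a31: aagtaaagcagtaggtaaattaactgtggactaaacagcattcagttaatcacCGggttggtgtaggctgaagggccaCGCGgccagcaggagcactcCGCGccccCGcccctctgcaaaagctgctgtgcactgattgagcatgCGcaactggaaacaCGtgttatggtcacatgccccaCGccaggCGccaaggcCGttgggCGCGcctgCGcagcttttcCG
Asz1: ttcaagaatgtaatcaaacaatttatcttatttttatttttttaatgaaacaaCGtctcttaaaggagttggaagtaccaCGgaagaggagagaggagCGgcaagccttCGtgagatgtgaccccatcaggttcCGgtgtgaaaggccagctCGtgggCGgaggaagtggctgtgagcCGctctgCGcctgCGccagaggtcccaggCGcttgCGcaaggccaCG
Boll: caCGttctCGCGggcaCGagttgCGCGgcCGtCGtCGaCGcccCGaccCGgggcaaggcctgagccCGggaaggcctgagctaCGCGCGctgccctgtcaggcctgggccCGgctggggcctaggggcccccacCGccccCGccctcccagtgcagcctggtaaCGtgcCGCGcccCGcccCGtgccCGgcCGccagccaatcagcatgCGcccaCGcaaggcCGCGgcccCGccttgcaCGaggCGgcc

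Of 58 further germline genes 41 were measured, with 12 at or above 50% and 12 under 10% in all tumors. The read-level test called 17 lower (41.5%, against 29.5% of all promoters) and 7 higher (17.1%, against 9.03%). edgeR called 0, with 5 at an unadjusted p under 0.05 (12.2%, against 8.79% of all promoters). The read-level test called 2 higher without 344SQP replicate 1, 11 without 344SQP replicate 2 or 344SQR replicate 1, and 3 without 344SQR replicate 2 (4.88%, 26.8%, 26.8% and 7.32%), against 7.35%, 12.9%, 11.9% and 3.96% of all promoters in the same fits. The largest differences among those with at least 5 sites were named. Fkbp6, a piRNA factor, held 93.0% and 87.8% in 344SQP and 81.8% and 75.3% in 344SQR. Sohlh2, a germ cell transcription factor, held 94.4% and 93.0% in 344SQP and 89.0% and 82.0% in 344SQR, a difference of -8.20 that was -4.74 without 344SQR replicate 2. Ankrd31, a factor for meiotic DNA breaks, held 96.6% and 98.1% in 344SQP and 92.4% and 88.9% in 344SQR. In these 3 genes both 344SQR tumors were lower.

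In the opposite direction, Six6os1, a synaptonemal complex gene, held 18.3% and 36.2% in 344SQP and 31.9% and 46.3% in 344SQR. Mei4, a factor for meiotic DNA breaks, held 6.53% and 15.1% in 344SQP and 14.0% and 30.1% in 344SQR. Zar1, an oocyte gene, held 40.6% and 67.1% in 344SQP and 53.6% and 71.6% in 344SQR. In each the lines overlapped and replicate 2 was the higher tumor of its line. Six6os1 differed by 11.9, or 2.93 and not called without 344SQP replicate 1, 4.66 without 344SQR replicate 2, 20.8 without 344SQP replicate 2 and 19.07 without 344SQR replicate 1. Mei4 differed by 11.3, or 3.22 and not called without 344SQR replicate 2, 6.97 without 344SQP replicate 1 and 19.3 without 344SQR replicate 1. Zar1 differed by 8.70, but was called lower without 344SQP replicate 1 (-4.57) and was not called without 344SQR replicate 2 (-0.293), with 22.0 without 344SQP replicate 2 and 17.7 without 344SQR replicate 1. Of 12 genes of the E2F6 and MGA complex 11 were measured, all CpG-rich, and 9 were under 10% in all tumors (81.8%), near the 79.0% of all CpG-rich promoters. The read-level test called 2 lower (18.2%, against 18.9% of all CpG-rich promoters) and 1 higher, Mga (9.09%, against 9.41%), and edgeR called 0, with 2 at an unadjusted p under 0.05 (18.2%, against 6.37% of all CpG-rich promoters). Without either 344SQP tumor the counts were 0 lower and 2 higher, without 344SQR replicate 1 they were 2 and 2, and without 344SQR replicate 2 they were 3 and 1. Of CpG-rich promoters, 19.0% were called lower and 7.81% higher without 344SQP replicate 1, 11.6% and 13.2% without 344SQP replicate 2, 19.5% and 12.5% without 344SQR replicate 1, and 24.3% and 2.63% without 344SQR replicate 2. The counts in the complex were 0 and 1 with the 5′ TSS only or within 250 bp of a TSS, 1 and 1 at sites read at least 10 or 50 times, and 1 and 2 with strands merged. Mga, named after its values were seen, held 4.77% and 1.97% in 344SQP and 9.38% and 14.0% in 344SQR over 18 sites. Both 344SQR tumors were higher, by 8.32 on average, Mga was called higher whichever tumor was left out, and the edgeR adjusted p was 0.433.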

How the data were processed

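The tables the authors deposited list each CpG cytosine with its coverage, which is a count, and with the methylated share in percent, from reads handled with Trim Galore 0.4.1, cutadapt 1.9.1, Bismark, Bowtie 1.1.2 and methylKit on mm10. Methylated reads were taken as coverage times that share, rounded. The reference base was checked at all 1081201 sites with 20 or more reads in all 4 tumors. Promoters were joined over all TSSs of a GENCODE vM21 gene, and levels are means of site percentages. Levels by distance are means over genes of such means. Adjusted values are Benjamini-Hochberg over all promoters. edgeR 4.0.16 and limma 3.58.1 (R 4.3.3) were fitted to methylated and unmethylated reads summed by promoter. Other steps used Python 3.11.15, numpy 2.4.6, scipy 1.17.1, pandas 2.3.3, statsmodels 0.14.6 and pysam 0.24.0, and were tested on simulated data. CpG-rich promoters held a 500 bp window with an observed to expected CpG ratio over 0.75 and GC over 55%, and CpG-poor ones had none over 0.48. Values in every tumor were set for members with at least 5 sites, lines apart and a difference of at least 5 points, the 4 highest, the 4 lowest, the 3 with the largest SD within a line, and textbook genes. Other members are named to account for the list. Members and lists were chosen with earlier results of these data known. Alternatives were coverage minimums of 10 and 50 reads, merged strands, the 5′ TSS only, a window of 250 bp on each side, pooled reads, a replicate block, edgeR or a stricter threshold, and leaving out each tumor.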

Additional observations from a re-analysis of the deposited data

Results flagged for a closer look

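Reads from the Y chromosome, which no comparison of the members uses, appeared in all 4 tumors although the host mice were female. For every 1000000 CpG calls they numbered 406 and 254 in the 344SQP tumors and 555 and 178 in the 344SQR tumors. Their source was not tested.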

How the results depend on the processing

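Other settings were a coverage minimum of 10 or 50 reads, merged strands, the 5′ TSS only and the window of 250 bp on each side. In these, 32 to 37 members were measured, with 15 to 17 called lower and 3 to 5 higher. Of all promoters, 24.4% to 29.8% were called lower and 8.52% to 9.46% higher. Of the members, 26 to 30 were at or above 50%, and edgeR called 0. Leaving out each tumor gave 12 to 25 members called lower, 0 to 8 higher, 0 by edgeR, 29 to 30 at or above 50%, 1 to 2 under 10%, 14 to 21 further genes lower, 2 to 11 higher, and a mean difference of -3.46 to -1.41. In those edgeR fits the lone tumor of a line is assumed to vary like the other line. edgeR in place of the read-level test gave 0 members and 0 further genes in either direction. A false discovery rate of 0.01 with at least 5 points gave 7 members lower and 2 higher, and 10 further genes lower and 5 higher. These counts stand without the share of all promoters at that threshold. The narrow window gave 10 further genes lower, and pooled reads put 2 members under 10%. The cause of these changes was not tested.

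With a replicate block, Mantel-Haenszel tests called 17 members lower and 4 higher, beside 16 and 4 in the main test. These Mantel-Haenszel counts stand without the share of all promoters in that fit. With the block, edgeR called 4 members in place of 0 (11.1%) and 2444 promoters in place of 15 (12.1%). The 4 were Asz1 (adjusted p 0.000586), Tuba3a (5.95e-05), Piwil2 (0.0319) and Tdrd5 (0.0380). The tumors share only a number, and deviations of tumors with the same number correlated at r = 0.811 across 16692 promoters, which are not independent.

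With the 5′ TSS only, the difference was -3.83 for Dazl and 0.182 for Taf7l, which was then not called. Leaving out each tumor gave -2.88 to 12.95 for Dazl, -7.27 to 14.6 for Dmrt1, -23.7 to 16.7 for Nanos2, -1.64 to 5.43 for Smc1b, -3.96 to 1.75 for Brdt, -3.19 to 0.360 for Ddx4, -1.09 to 0.142 for Dpep3, -0.682 to 0.273 for Mael, -0.968 to 0.121 for Prdm9 and -0.597 to 2.87 for Stag3. The cause was not tested. Without members that share a promoter with a neighbour, an alternative chosen after seeing the data, 15 members were called lower and 3 higher. Those counts stand without a share of all promoters under the same rule. Members with few sites, such as Majin with 3 and Nanos2 and Brdt with 1 each, rest on little data.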
